A study of Mus musculus with 6 samples.

Results

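Complement and acute phase proteins were represented by 7 genes, namely C3, C1ra, C1s1, C1s2, Saa3, Orm2 and Lbp, of 817 genes with deposited expression values. They were taken by gene symbol, and were chosen with earlier results of these data known. C3, C1s2, Saa3, Orm2 and Lbp were found in a list of 232 genes with estimated read counts (the count list), and C1ra and C1s1 in a second list of 602 genes. The deposited headings call the values of that list read counts, but 0.920% of the genuine ones are whole, so their scale was taken as unknown.

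The sequencing was done to find the transcripts that differ in mouse cell cultures after silencing of Lhx8, which encodes a transcription factor of the LIM homeobox family. There were 3 libraries of cells transfected with Lhx8 siRNA, which the labels call LHX8 deficient, and 3 of vehicle-treated cells, which received the transfection reagent Turbofectamine alone and are labelled wild-type. The labels give all cells as preadipocytes and name the cell line 3T3-L4, 3T3-L5 and 3T3-L6 for the siRNA libraries and 3T3-L1, 3T3-L2 and 3T3-L3 for the vehicle libraries, in sample order. 3T3-L1 is a clonal mouse fibroblast line that can be differentiated into fat cells, and the study names it alone among these. The study's methods call the sequenced cells cultured adipocytes. Libraries with a control siRNA were not analysed here, so loss of Lhx8 and the presence of any siRNA cannot be told apart. Lhx8 itself was in neither list, so the knockdown could not be checked in these libraries. By immunostaining, the study reports a loss of LHX8 protein in cultured primary mouse adipocytes given Lhx8 siRNA. The labels do not state that libraries came from separate cultures, so the spread behind each p-value may be technical.

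Complement is a cascade of blood and tissue proteins that tags microbes and damaged cells. In the classical pathway the recognition protein C1q carries the proteases C1r and C1s, whose cleavage of C4 and C2 forms the enzyme that splits C3. Factor B performs the corresponding step in the alternative pathway. Acute phase proteins are secreted in larger amounts during inflammation, mostly by the liver, where IL-1, TNF and IL-6 act through NF-kappaB, C/EBP and STAT transcription factors. Adipocytes and fibroblasts are also known to make several of these proteins, among them C3 and serum amyloid A3.

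Both lists hold genes selected by the authors from these libraries, so a shared direction is not independent evidence. In the count list, totals over the listed genes were 24314 to 28919 in the siRNA libraries and vehicle 1 and 2, and 130467 in vehicle 3. These are not library sizes. Vehicle 3 was the highest library for 201 of 232 genes (86.6%). In the second list it was the highest for 28.6% of the 273 genes with a genuine value in every library. Of 17 genes present in both lists, values of the second list ranged from 0.0212 to 14.6 times the count of the same gene, over libraries other than vehicle 3. After multiplying by transcript length in kilobases the range was 0.0365 to 75.02, so neither the depth nor the gene length relates the lists by 1 factor. Levels were therefore compared only within a list.

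The sequence just upstream of the start site is shown for C3 and Saa3, which were high together in vehicle 3, and for Orm2, which was low there. Each is 250 bases long, from RefSeq on GRCm38.p6, written 5′ to 3′ on the strand of the gene and ending at the base before the start. Capitals mark matches to the C/EBP motif TTNNGNAA on either strand.
C3, chr17:57228137-57228386, minus strand: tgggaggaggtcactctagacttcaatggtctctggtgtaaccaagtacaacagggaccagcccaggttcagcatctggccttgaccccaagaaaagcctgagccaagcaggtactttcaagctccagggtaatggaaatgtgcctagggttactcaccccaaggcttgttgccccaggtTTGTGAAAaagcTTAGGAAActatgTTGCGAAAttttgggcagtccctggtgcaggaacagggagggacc
Saa3, chr7:46715677-46715926, minus strand: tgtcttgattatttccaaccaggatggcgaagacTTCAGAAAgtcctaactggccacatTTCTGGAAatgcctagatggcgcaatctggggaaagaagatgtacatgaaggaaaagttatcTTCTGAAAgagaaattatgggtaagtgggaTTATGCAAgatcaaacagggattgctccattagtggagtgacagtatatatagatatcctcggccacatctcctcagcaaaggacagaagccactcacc
Orm2, chr4:63362199-63362448, plus strand: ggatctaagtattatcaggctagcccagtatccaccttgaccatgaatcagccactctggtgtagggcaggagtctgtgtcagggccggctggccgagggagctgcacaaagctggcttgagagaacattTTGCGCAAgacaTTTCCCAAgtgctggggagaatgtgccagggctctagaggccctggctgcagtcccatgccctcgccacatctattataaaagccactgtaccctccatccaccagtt

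The C/EBP motif had 3 matches in the C3 window, beginning 70, 58 and 45 bases before the start, 4 in that of Saa3, at 216, 191, 129 and 99 bases, and 2 in that of Orm2, at 120 and 108 bases. The C1ra window held 2 such matches, that of C1s1 2 at its first listed start, and that of C1s2 0. At least 1 match was present in 36.9% of 27025 RefSeq promoter windows of this length. The STAT motif TTCNNNGAA, found in 7.18% of windows, and the consensus NF-kappaB motif, found in 7.01%, had no match in the windows of these genes. A looser NF-kappaB form, GGG and CC separated by any 5 bases, matched 4 times in C3, where the matches at 197 and 196 bases overlap each other, and 1 time each in C1s2 and at the second start of C1s1, against 45.4% of all windows. Matches describe letters only and show no binding. Lbp was not matched in the promoter table.

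C3 (ENSMUSG00000024164), the central protein of the cascade, had the highest count of these genes in every library, although not per length in vehicle 3. C3 had counts of 412, 542 and 528 in siRNA 1, 2 and 3, against 449, 512 and 3714 in vehicle 1, 2 and 3. Vehicle 1 and 2 lay inside the range of the siRNA libraries, and vehicle 3 alone was 7.73 times the mean of the other vehicle libraries. The mean was 494 ± 71.4 with siRNA and 1558 ± 1867 with vehicle (SD, n = 3 each), and vehicle 3 held 79.4% of the vehicle sum. With 1 common library size the log2 fold of C3 was -1.66 ± 0.90 (SE, adjusted p = 0.317, edgeR's quasi-likelihood test with Benjamini-Hochberg adjustment). Without vehicle 3 it was 0.04 ± 0.18 (adjusted p = 0.908), so the direction rested on that library.

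Cfb, which encodes factor B, the alternative pathway partner of C3, followed the same arrangement. Counts of Cfb were 8, 10 and 13 in siRNA 1, 2 and 3, against 6.79, 11 and 70 in vehicle 1, 2 and 3. Vehicle 3 was 7.87 times the mean of vehicle 1 and 2, close to the multiple of C3, while the other 5 libraries overlapped. This arrangement is common in the count list, where vehicle 3 was the highest library for 86.6% of genes. Both multiples lay between the quartiles of 3.72 and 8.73 over the 128 genes with a mean of at least 20. Its log2 fold was -1.49 ± 1.10 over all libraries and 0.20 ± 0.41 without vehicle 3 (adjusted p = 0.317 and 0.827, edgeR).

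The initiating proteases were split between the lists. C1s2 (ENSMUSG00000079343), a mouse copy of the C1s gene, had counts of 185, 252 and 218 in siRNA 1, 2 and 3, against 231, 229 and 864 in vehicle 1, 2 and 3. Both groups overlapped, and vehicle 3 exceeded the mean of vehicle 1 and 2 by a factor of 3.76, less than for C3. The log2 fold of C1s2 was -1.01 ± 0.97 (adjusted p = 0.330, edgeR), and -0.08 ± 0.19 without vehicle 3 (adjusted p = 0.861).

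C1ra and C1s1, which encode the C1r and C1s proteases, were lower with Lhx8 siRNA in the second list by a small and steady margin. C1ra had values of 202, 216 and 214 in siRNA 1, 2 and 3, against 240, 249 and 267 in vehicle 1, 2 and 3. C1s1 had 91.9, 103 and 103 in siRNA 1, 2 and 3, against 111, 108 and 129 in vehicle 1, 2 and 3. In both genes every siRNA library lay below every vehicle library, also without vehicle 3. Of the 273 genes with a genuine value in every library, 53.5% likewise had groups apart and lower, with or without vehicle 3. The mean of C1ra was 211 ± 7.50 with siRNA and 252 ± 13.9 with vehicle (SD, n = 3 each), a ratio of 0.837, and that of C1s1 was 99.4 ± 6.51 with siRNA and 116 ± 11.03 with vehicle, a ratio of 0.857.

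On the scale of log2 of the value plus 0.1, C1ra fell by 0.26 ± 0.05 (SE, adjusted p = 1.79e-04) and C1s1 fell by 0.22 ± 0.06 (adjusted p = 0.00383, limma with Benjamini-Hochberg adjustment over 496 genes). Of those 496 genes 48.8% passed as lower and 49.6% as higher, so 2 of 2 passing is the background of this list. The exact two-sided permutation test gave p = 0.1 for each, the smallest that 3 against 3 libraries allow. Without vehicle 3 the log2 differences were -0.21 for C1ra and -0.14 for C1s1 (adjusted p = 0.00119 and 0.0314, limma), where 48.9% of 409 genes passed as lower. C1s1 shares 576 exonic bases with Gm16567 on the opposite strand in GENCODE M21, and no source used here states whether counting used strand.

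C1ra, C1s1 and C1s2 have close copies, and reads could be assigned to either copy. The transcripts of C1s1 and C1s2 were 95.9% identical over 2644 aligned positions. Of windows of 50 bases, 26.9% of C1s2 and 24.3% of C1s1 occurred unchanged in the other gene, and 50.8% of C1ra windows occurred in another gene, mostly C1rb. At 100 bases these shares were 8.78%, 7.90% and 35.9%. C1rb was in neither list. The fractional counts of C1s2, such as 185.06 in siRNA 1, are of the kind given when reads are divided between copies, and values of the C1s pair are uncertain to that extent.

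**Figure D1:**
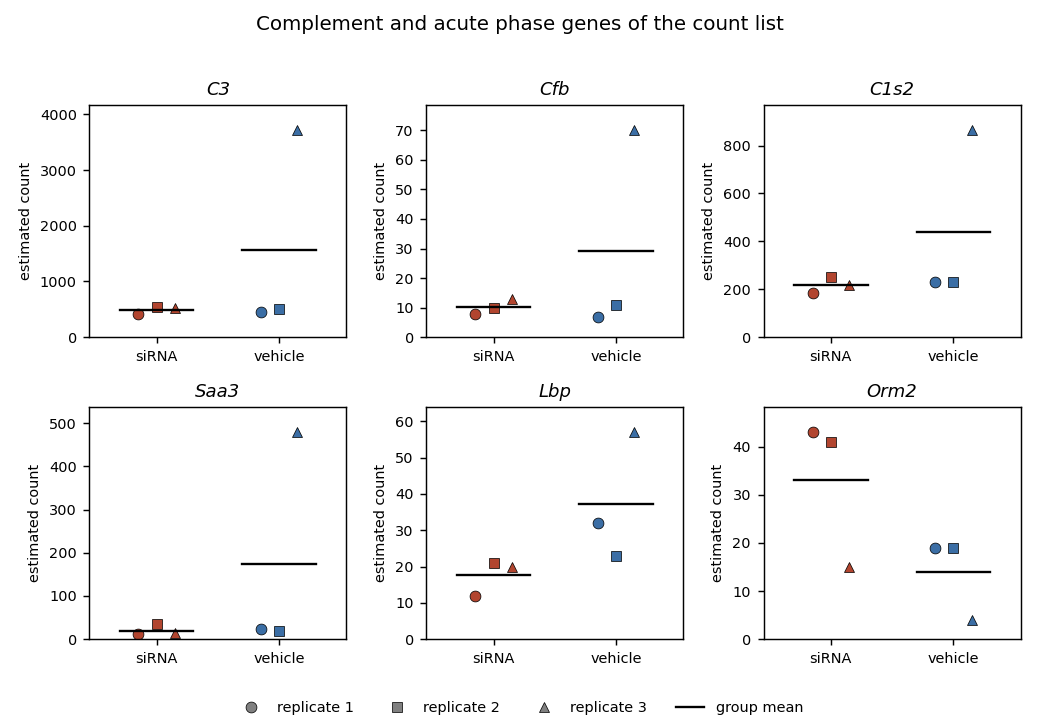
Estimated counts of C3, Cfb, C1s2, Saa3, Lbp and Orm2 in the count list, on linear axes from 0. Each point is 1 library of the siRNA or vehicle group, and the line is the group mean (n = 3). Vehicle 3 stands above the other libraries for every gene but Orm2, where it is the lowest at 4 counts.

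Among the acute phase genes, Saa3 (ENSMUSG00000040026), the serum amyloid A gene that mice express outside the liver, had the lowest fold. Counts of Saa3 were 11, 34 and 14 in siRNA 1, 2 and 3, against 24, 18 and 479 in vehicle 1, 2 and 3. Vehicle 3 held 91.9% of the vehicle sum and was 22.8 times the mean of vehicle 1 and 2, which both lay inside the siRNA range. The siRNA libraries themselves differed by a factor of 3.09 between siRNA 2 and siRNA 1. The log2 fold was -3.13 ± 1.25, with an adjusted p of 0.317 and an unadjusted p of 0.0163 (edgeR), and -0.09 ± 0.53 without vehicle 3 (adjusted p = 0.925).

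Lbp (ENSMUSG00000016024) encodes the protein that carries bacterial lipopolysaccharide to its receptor CD14. Lbp had counts of 12, 21 and 20 in siRNA 1, 2 and 3, against 32, 23 and 57 in vehicle 1, 2 and 3. It was the only gene of the 5 in the count list whose groups did not overlap, and this also held without vehicle 3, although siRNA 2 and vehicle 2 were only 2 counts apart. Over the whole count list 12.5% of genes had groups apart and lower with siRNA, and 12.9% without vehicle 3. The log2 fold of Lbp was -1.07 ± 1.02 (adjusted p = 0.330, edgeR) and -0.63 ± 0.35 without vehicle 3 (adjusted p = 0.488), and the exact two-sided permutation p was 0.1.

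Orm2 (ENSMUSG00000061540), which encodes an orosomucoid, a plasma glycoprotein that binds basic and lipophilic compounds, was the exception in direction. Orm2 had counts of 43, 41 and 15 in siRNA 1, 2 and 3, against 19, 19 and 4 in vehicle 1, 2 and 3. The groups overlapped through siRNA 3, which lay below vehicle 1 and 2, and vehicle 3 was the lowest library. The log2 fold was 1.23 ± 1.05 (adjusted p = 0.323, edgeR), and 0.79 ± 0.49 without vehicle 3 (adjusted p = 0.535). Of 50-base windows of its transcript 22.7% also occur in another gene, mostly Orm1, which was in neither list.

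No gene of the 5 passed edgeR's test at an adjusted p of 0.05, as none of the 232 did (0%). At an unadjusted p of 0.05 Saa3 was past the threshold, against 27 of 232 genes (11.6%) in the list. DESeq2 called 1 gene of the list when it estimated size factors and 0 when these were fixed at 1, none of them among these 5. In the run with fixed size factors it gave no adjusted p for 20 genes, among them Saa3, which was therefore not tested there. A negative fold was found for 4 of the 5 genes, with a median of -1.07, beside 89.2% of the list with a median of -1.55. Without vehicle 3, 3 of the 5 were negative with a median of -0.08, beside 119 of 201 genes tested with a median of -0.10. Scaling by TMM moved the median of the whole list to -0.12, with 141 genes negative and 91 positive, against 207 and 25 with the common size. Under TMM the log2 folds of Saa3, Lbp and Orm2 kept their sign, at -1.02, -0.18 and 1.51, C3 was at -0.03 and C1s2 turned positive at 0.19.

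**Figure D2:**
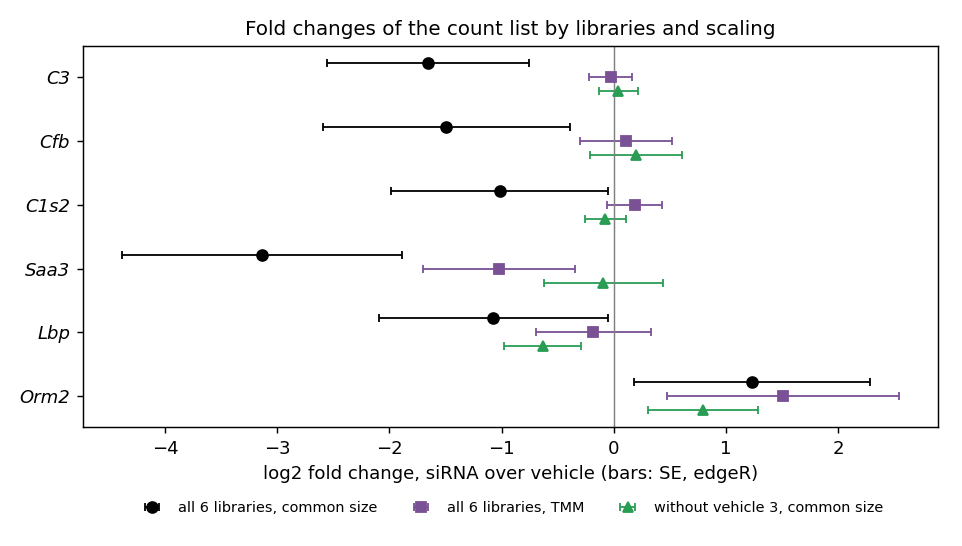
Log2 fold change of siRNA over vehicle for C3, Cfb, C1s2, Saa3, Lbp and Orm2 of the count list. Bars are standard errors derived from edgeR's F statistic. Circles use all 6 libraries with 1 common size, squares all 6 with TMM scaling, and triangles leave out vehicle 3. Saa3 is at -3.13, -1.02 and -0.09 under these settings, and Orm2 is positive under all of them.

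Vehicle 3 did not stand apart by 1 factor in these genes. Its multiple of the mean of vehicle 1 and 2 was 22.8 for Saa3, 7.73 for C3, 3.76 for C1s2, 2.07 for Lbp and 0.211 for Orm2. Over the 128 genes of the count list with a mean of at least 20, the median multiple was 5.56 and the quartiles were 3.72 and 8.73. Saa3 lay above the upper quartile, C3 between the quartiles and C1s2 near the lower one, whereas Lbp and Orm2 were below it. The same multiple in the second list was 1.09 for C1ra and 1.17 for C1s1, against a median of 1.03 and an upper quartile of 1.07 over 273 genes, so both lay above that quartile.

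**Figure D3:**
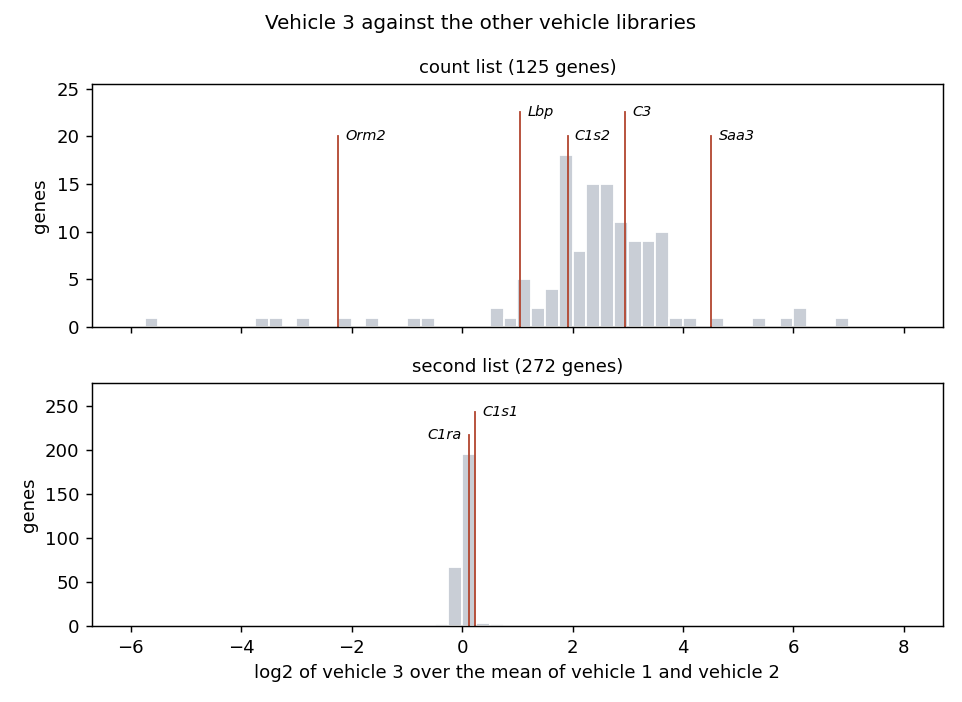
Histograms of the log2 ratio of vehicle 3 over the mean of vehicle 1 and 2, for 125 genes of the count list (above) and 272 of the second list (below) with a ratio above 0. Red lines mark complement and acute phase genes. Saa3 lies far right and Orm2 far left in the count list, while C1ra and C1s1 lie close to 0 in the second list.

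Markers of other cell types moved with vehicle 3 in the count list. Of 16 leukocyte markers 2 were listed, and their summed counts were 77 to 99 in siRNA libraries, against 59 to 66 in vehicle 1 and 2 and 214 in vehicle 3. The integrin subunit Itgb2, part of a receptor for C3 fragments, had 19, 21 and 19 in siRNA 1, 2 and 3, against 19, 14 and 213 in vehicle 1, 2 and 3, whereas the Langerhans cell lectin Cd207 was lowest in vehicle 3. The mesothelial genes Msln and Lrrn4, 2 of 11 in their class, summed to 605 to 721 in siRNA libraries, against 592 to 657 in vehicle 1 and 2 and 3740 in vehicle 3. Clec14a, 1 of 6 endothelial markers, was at 432 in vehicle 3 and 46 to 69 elsewhere, and of 7 hepatocyte markers none was listed. Vehicle 3 was 5.95 times the mean of vehicle 1 and 2 for Msln and 6.91 times for Clec14a. Both multiples lay between the quartiles of 3.72 and 8.73 given above for the count list. Those of Itgb2, at 12.9, and of Lrrn4, which had low counts, lay above the upper quartile. No measured marker was at 0 in any library, and their part in the counts of C3 and Saa3 was not tested. The preadipocyte or fibroblast markers Pdgfra, Col3a1 and Ly6a, 3 of 11, were in the second list, and the adipocyte genes Adipoq and Lpl, 2 of 11, were there too, so the lists do not settle whether the cells were preadipocytes, as labelled, or adipocytes.

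Per kilobase of transcript, the order of the count-list genes could be compared within each library. In siRNA libraries C3 stood at 96.2 ± 13.9 and C1s2 at 82.1 ± 12.6 counts per kilobase (SD, n = 3). C3 was above C1s2 within each of them, by 10.7, 10.8 and 20.9 counts per kilobase in siRNA 1, 2 and 3. Orm2 at 42.6 ± 20.2 and Saa3 at 35.4 ± 22.5 counts per kilobase changed places between libraries, Orm2 being higher in 1 of the 3, and Lbp was lowest at 7.0 ± 1.95. In vehicle 1 and 2 the genes stood in the order C3, C1s2, Saa3, Orm2 and Lbp, with C3 at 87.4 and 99.7, C1s2 at 86.7 and 86.1, and Saa3 at 43.2 and 32.4 counts per kilobase. In vehicle 3 Saa3 stood above C3, at 863 counts per kilobase against 723 for C3.

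The genes most like each of these in pattern over the libraries were found by Pearson's r of log2 values, given as a description. Over all 6 libraries r was set largely by vehicle 3, so for the count list it was also taken over the other 5. There each gene was compared with 127 others over 5 libraries, so the highest r is large partly by selection. C3 was most like Cpa4, a carboxypeptidase gene (r = 0.87). C1s2 was most like Saa3 (r = 0.92), which had only 11 to 34 counts in those libraries. Saa3 was most like Pdgfrl, a PDGF receptor-like gene, and Dpt, which encodes dermatopontin (both r = 0.97). These were highest in siRNA 2 among the 5 libraries, with Pdgfrl at 82, 128 and 83 in siRNA 1, 2 and 3, against 112 and 104 in vehicle 1 and 2. Lbp was most like Mrgprf (r = 0.99), and Orm2 most like Sphk1, a sphingosine kinase gene (r = 0.96), although Sphk1 was high and Orm2 low in vehicle 3. In the second list, over 6 libraries, C1ra was most like the globin gene Cygb (r = 0.99). C1s1 was most like the anthrax toxin receptor gene Antxr1 and Colec12 (both r = 0.97). Each was compared with 272 others, in a list where 48.8% of 496 genes passed as lower. These r values are therefore large partly by selection and by the shared difference between groups.

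From lists of 116 complement, acute phase and inducing pathway genes, the count list held 7 and the second list 8. No listed member of the terminal pathway (0 of 8) or of the soluble and membrane regulators (0 of 15) was in either. All 8 genes of the second list were lower with siRNA and passed limma's test, against 48.8% of that list called lower. The lists were written with earlier results of these data known, and the authors selected the genes of the second list. The share is therefore a description and no test of these pathways. Besides C1ra and C1s1 these were Colec12, a collectin that acts as a scavenger receptor and can start complement, the metallothionein Mt1, an acute phase gene of liver, and 4 genes of the inflammatory signals that induce acute phase proteins. Groups did not overlap for any of the 8, where 53.5% of 273 genes were apart and lower.

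Cebpb encodes the transcription factor C/EBP beta, which acts on acute phase genes and in early adipocyte differentiation. Cebpb had values of 126, 113 and 114 in siRNA 1, 2 and 3, against 155, 171 and 150 in vehicle 1, 2 and 3, a log2 difference of -0.43 ± 0.06 (adjusted p = 3.48e-06, limma). Il1rn, which encodes the antagonist of the IL-1 receptor, had 13.4, 13.8 and 16.4 in siRNA 1, 2 and 3, against 21.2, 20.4 and 19.9 in vehicle 1, 2 and 3, with -0.50 ± 0.09 (adjusted p = 6.13e-05). Its target receptor Il1r1 had 29.6, 32.6 and 31.5 in siRNA 1, 2 and 3, against 40.3, 39.8 and 44.7 in vehicle 1, 2 and 3, with -0.41 ± 0.07 (adjusted p = 4.20e-05). The IL-1 receptor and its antagonist were thus both lower with siRNA, and whether they differed by more than the initiating proteases was not tested.

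The TNF receptor gene Tnfrsf1a had the smallest log2 difference of the 8, with 252, 234 and 239 in siRNA 1, 2 and 3, against 271, 262 and 270 in vehicle 1, 2 and 3. Its log2 difference of -0.15 ± 0.05 (adjusted p = 0.00603, limma) was -0.07 after each library was centred on its median, where it no longer passed (adjusted p = 0.135). Colec12 had 131, 148 and 148 in siRNA 1, 2 and 3, against 161, 163 and 177 in vehicle 1, 2 and 3, a log2 difference of -0.23 ± 0.06 (adjusted p = 0.00118). Mt1 had 384, 429 and 411 in siRNA 1, 2 and 3, against 471, 503 and 486 in vehicle 1, 2 and 3, a log2 difference of -0.25 ± 0.05 (adjusted p = 1.35e-04). The highest siRNA library stayed below the lowest vehicle library in each of them, as in 53.5% of 273 genes of that list. Cell type markers of the same list were lower too, in a list of selected genes where 48.8% of 496 passed as lower. The fibroblast markers summed to 631 to 659 in siRNA libraries, against 754 to 831 in vehicle 1 and 3, with log2 differences of -0.39 for Ly6a, -0.27 for Pdgfra and -0.21 for Col3a1. The adipocyte genes summed to 282 to 302 in siRNA 1 and 3, against 344 to 350 in vehicle 1 and 2. Among them Adipoq, which encodes the adipocyte hormone adiponectin, had 3.47 and 2.83 in siRNA 1 and 3, against 8.76 and 8.96 in vehicle 1 and 2, a log2 difference of -1.47 ± 0.15 (adjusted p = 5.80e-07, limma). Lpl was at -0.29 ± 0.05 (adjusted p = 5.77e-05). The part of these markers in the differences of the 8 genes was not tested.

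**Figure D4:**
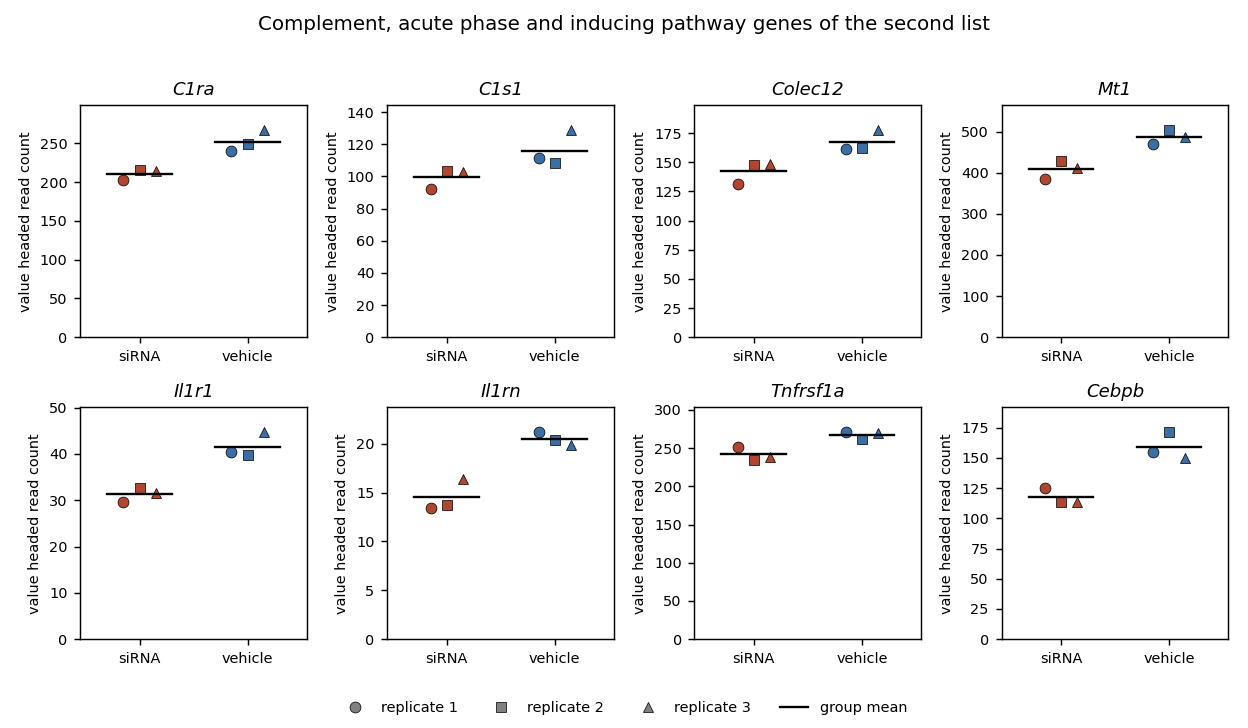
Values of C1ra, C1s1, Colec12, Mt1, Il1r1, Il1rn, Tnfrsf1a and Cebpb in the second list, on linear axes from 0, headed read counts by the authors but of doubtful scale. Each point is 1 library of the siRNA or vehicle group and the line is the group mean (n = 3). All siRNA points lie below all vehicle points in each of the 8 genes. The same holds for 53.5% of the 273 genes with a genuine value in every library. Vehicle 3 is the highest library for C1ra, C1s1, Colec12 and Il1r1.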

How the data were processed

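Poly(A) RNA of 6 libraries, 3 siRNA and 3 vehicle, was read from DNA nanoballs. HISAT, Bowtie2, RSEM and DESeq2 are named in the study's methods or in the processing notes of the submitters. No source used here gives versions, genome build or annotation. The authors deposited estimated counts for 232 selected genes, of which 86.8% are whole. Beside them stand group means and the authors' own fold changes and p-values, which were not used. A further table repeats these and adds 602 genes whose deposited values, headed read counts but treated as a score of unknown scale, are whole in 0.920% of genuine cells. Of 3612 cells 3042 hold a genuine number. The rest are dates made by a spreadsheet and were ignored, none of them in C1ra or C1s1.

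Counts were rounded and tested with edgeR 4.0.16 (R 4.3.3) on the whole list, unpaired, with 1 common library size and a summed count of at least 10. The standard error of each log2 fold was derived as its absolute size over the square root of edgeR's F statistic. The count test was planned for the second list only if its values proved to be counts, and was not used there as their scale is unknown. For that list limma 3.58.1 with a trend was applied to log2(value + 0.1) in the 496 genes that had 2 or more genuine values per group. Adjustment was by Benjamini-Hochberg, and the threshold was 0.05. Both tests were checked on simulated data in which no library stood apart as vehicle 3 did, so the check does not cover that case. Alternatives were TMM, DESeq2 1.42.0, filters, pseudocounts, centring, a replicate block and leaving out each library. Exact permutation tests used scipy 1.17.1. Transcript lengths (the principal coding transcript) and shared windows came from GENCODE M21, and promoters from RefSeq, where 6 of the 7 genes were matched. The consensus form of the NF-kappaB motif was searched after the looser form. Genes were named as all 7 members, all measured genes of the fixed lists, and for each member genes among the 3 with the highest r. The members and lists were chosen with earlier results of these data known. Cell type markers were named for checking only.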

Additional observations from a re-analysis of the deposited data

How the results depend on the processing

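Over alternatives, 182 of 193 log2 folds of the complement, acute phase and inducing pathway genes kept their direction and their side of the threshold. No count-list gene among them passed in any setting, so these were counted as kept by sign alone, whatever their size. Thus C3 at -0.03 under TMM counts as kept beside -1.66, and Saa3 at -0.09 without vehicle 3 beside -3.13. DESeq2 with fixed size factors gave no adjusted p for Saa3 and Itgb2, which are not counted. C1ra and C1s1 passed in all 13 alternatives run for each, with log2 differences of -0.29 to -0.18 and -0.27 to -0.14. Most genes of the second list passed as well, in either direction. These were 487 of 496 with a pseudocount of 1, 435 of 496 with libraries centred on their median, and 398 of 409 without vehicle 3. The exceptions were in the count list, apart from Tnfrsf1a, which was at -0.07 with libraries centred on their median. C1s2 turned to 0.19 under TMM and 0.17 under DESeq2 with its own size factors. Cfb turned to 0.11 and 0.057 under these, ranged from -1.96 to 0.20 when each library was left out, and was 0.23 with TMM and without vehicle 3. Leaving out each library, C3 ranged from -2.10 to 0.040 and Itgb2 from -2.55 to 0.25, both highest without vehicle 3, and with TMM and without vehicle 3, an alternative chosen after seeing the data, they were 0.068 and 0.29. The causes were not tested.

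The count list had 0 genes called, 1 under DESeq2 with its own size factors, 1 with TMM and without vehicle 3, and 0 to 6 when each library was left out. These 6 were without vehicle 1, and 5 were called without vehicle 2. The second list had 488 called, 271 where all 6 values had to be genuine (273 genes tested), and 370 to 398 when each library was left out. The groups share replicate numbers, and same-numbered libraries deviated together weakly at most. Their r was -0.04, 0.05 and 0.27 for the count list, and 0.25, 0.12 and 0.03 for the second. Between different numbers r ran from -0.32 to 0.39 in the count list and from -0.31 to 0.13 in the second. With the replicate number as a block, 0 genes of the count list and 476 of the second were called, the log2 folds of Saa3, C3, Itgb2 and Cfb were -1.59, -0.89, -0.87 and -0.81, and not every library correlated best with its own number. Counts of Saa3, Orm2, Lbp and Cfb were mostly under 50, so counting error limits them. The depth behind the second list is unknown.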
